A study of Mus musculus with 12 samples.

Results

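The potassium channel genes were taken as the protein-coding genes of the mouse whose symbol starts with Kcn, leaving out the calcium-binding partner proteins Kcnip1 to Kcnip4. A gene needed at least 10 counts summed over the 12 libraries. The count tables held 52636 genes. Such a symbol was found for 90 of them, 78 passed the minimum, and the remaining 12 held 0 to 9 counts. The study sequenced total RNA of dentate gyrus, a region of the hippocampus, from C57BL/6 mice, with 4 groups of 3 libraries. The WT group carried no deletion and no vector, and the KO group lacked Fst, the gene of follistatin, a secreted protein that binds activins. The GFP vector group was knockout for Fst and had received an AAV9 vector with GFP behind an element that the labels call CB. The Fst vector group is called overexpressing in the labels and had received the same kind of vector with Fst, and its genotype is not stated. The age of the mice is not given, and the sources leave unclear whether a library held 1 mouse or several. A p-value here therefore sets a group difference against the spread between libraries, which may not be the spread between mice.

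Potassium channels let potassium leave the cell, which holds the membrane near its resting voltage and ends each action potential. Granule cells, the main neurons of the dentate gyrus, are known for a very negative resting voltage and sparse firing. Pore-forming alpha subunits open with voltage, calcium, sodium or G proteins, or pass a background current, while silent and auxiliary subunits alter channels that others form.

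Total counts per library ran from 8081824 to 11331337, and a count of 3, taken as the floor, equals 0.265 to 0.371 CPM (a count scaled by the total of its library). All 6 granule cell markers were detected in every library, with a summed level of 1213 to 1803 CPM. Single markers moved in both directions under this sum. Dsp had 220 to 266 CPM without vector, 98.3 to 288 CPM with the GFP vector and 34.2 to 75.0 CPM with the Fst vector. Calb1 and Tdo2 were lowest in GFP vector F, at 67.8 and 1.05 CPM. C1ql2 had 453 to 568 CPM without vector and 572 to 813 CPM in the vector libraries. Fst had 33 to 51 counts in WT, 2 to 4 in KO, 0 to 1 with the GFP vector and 1497 to 2078 with the Fst vector. For WT F1, WT M2, KO F1 and KO M2 the title and the description give different sexes, and the names used are those of the titles. Xist, expressed from the inactive X chromosome, was at 1520 and 1785 CPM in KO F1 and WT F1, with Y-linked Ddx3y at 0, and at 0.406 and 0.265 CPM in KO M2 and WT M2, with Ddx3y at 62.7 and 58.7 CPM, which matches the titles. The share of ribosomal RNA was 0.576% to 0.682% in Fst vector M2 and F, GFP vector M2, WT F1 and KO M2, against 0.00924% to 0.0211% in the other 7 libraries. Library F of the GFP vector group stood apart from the rest: Gfap, an astrocyte filament gene, had 4864 CPM there, against 369.8 to 1555 CPM in the other 11 libraries. Of the other astrocyte markers, Aqp4 and Aldh1l1 were highest in that library and Slc1a3 and Gja1 lowest, at 462 and 142 CPM.

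The 78 genes were divided by structure into 7 classes. There were 15 voltage-gated alpha subunits (Kcna to Kcnd), 9 electrically silent modifiers (Kcnf, Kcng, Kcns and Kcnv), and 13 alpha subunits of the Kcnq and Kcnh families. The others were 8 alpha subunits of the Kcnma, Kcnn, Kcnt and Kcnu families, 12 inward rectifiers, 11 two-pore channels and 10 auxiliary subunits or regulators. Those 8 are called channels activated by calcium or sodium, a name that follows the symbols and need not hold for each member, such as Kcnu1. Levels were compared between genes as CPM per kilobase of exon, averaged over the 12 libraries. These means and their SDs pool the 4 groups, so an SD over 12 libraries holds differences between groups as well as between replicates. On that scale 25 members reached 10 or more and 19 stayed under 1, with a median of 3.77.

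The highest level belonged to an auxiliary gene, Kcnab2, the cytoplasmic beta subunit that binds Shaker-type channels, with 123 ± 30.7 CPM per kilobase (SD, n = 12). Kcnc4, which encodes a channel that opens at high voltage and closes fast, had 63.6 ± 6.43 CPM per kilobase (SD, n = 12). Between these levels stood Kcnj4, a constitutively open inward rectifier, at 70.3 ± 12.3 CPM per kilobase (SD, n = 12).

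Kcnk1, a two-pore channel, had 56.8 ± 14.2 and Kcnj9, a subunit of channels opened by G proteins, had 54.7 ± 12.3 CPM per kilobase (SD, n = 12). Kcnab2 lay above Kcnj4 by more than the sum of their SDs. Kcnj4, Kcnc4, Kcnk1 and Kcnj9 each differed by less than that from the next of them in this order. Farther below, Kcnh3, a channel of the ether-a-go-go family, had 30.2 ± 3.31 CPM per kilobase (SD, n = 12). Kcng1 led the silent modifiers with 25.0 ± 6.98 and Kcng2 followed with 16.2 ± 5.05 CPM per kilobase (SD, n = 12). The calcium-activated Kcnma1, the pore of the BK channel, was first of its class at only 12.1 ± 1.16 CPM per kilobase (SD, n = 12), with the sodium-activated Kcnt2 next at 5.71 ± 1.32. Kcnab1 stood at 13.4 and Kcnk12 at 11.8 CPM per kilobase. The lowest member was Kcnn4, at 0.0383 CPM per kilobase. Dividing by the longest coding transcript in place of all exons kept Kcnab2 first and moved Kcnab1 from place 20 to place 9.

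**Figure D1:**
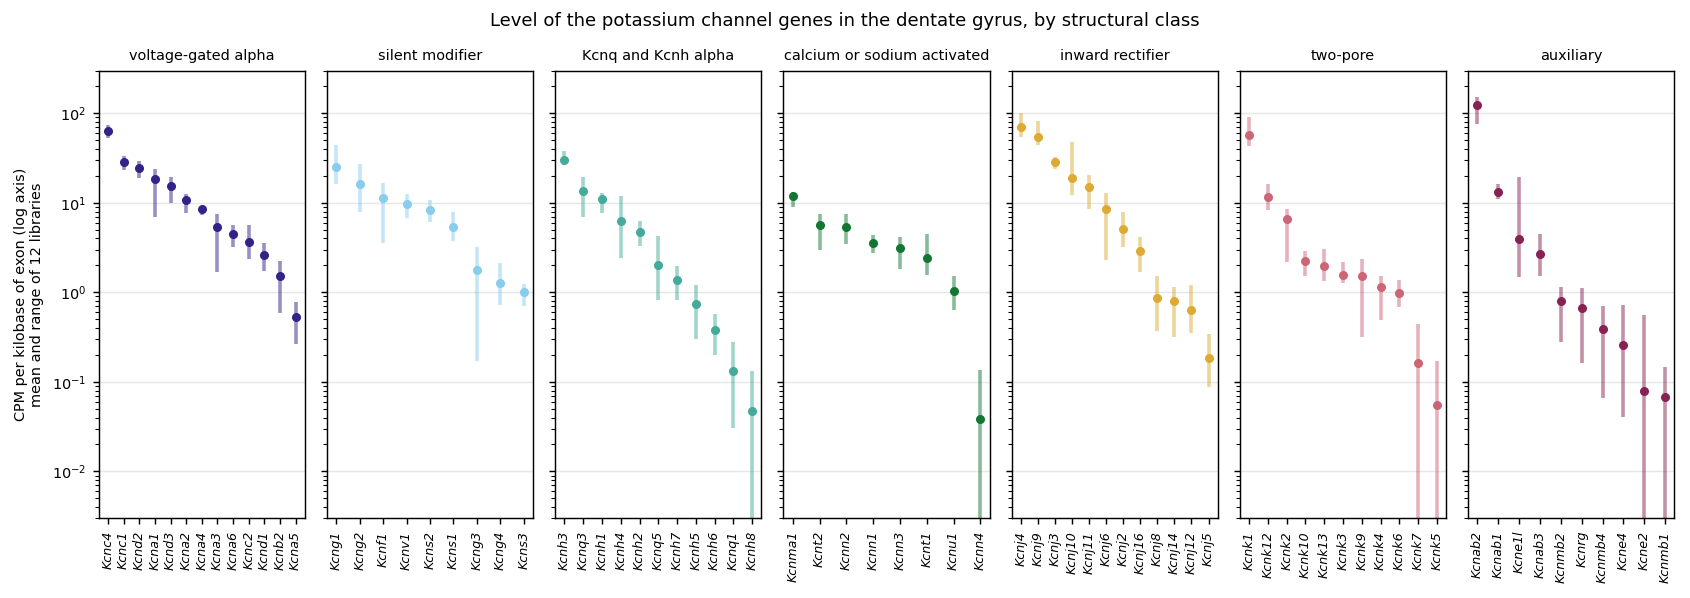
CPM per kilobase of exon on a log axis for potassium channel genes, in 7 panels by structural class. Points are means and lines the range over 12 libraries, and a line that reaches the lower edge includes a library below it; the level spans from 0.0383 for Kcnn4 to 123 for Kcnab2.

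KO was compared with WT to ask which genes differ without Fst. No potassium channel gene stood out: none of the 69 potassium channel genes tested passed an adjusted p of 0.05 in edgeR's quasi-likelihood test, and none of 78 did in DESeq2. Over all genes, edgeR called 0.0268% and DESeq2 0.0110%. Other settings of edgeR called no member either, with the replicate name as a block (0.154% of all genes), sex as a term (0.201%), no low-count filter (0.169%) or a spread shared over the 12 libraries (0.00640%). The other 9 members had 15 to 100 counts in all and were left out by the low-count filter. The median log2 difference of the 69 was 0.039, with 42 above 0, against a median of -0.00085 over all genes tested, of which 49.7% were above 0. The median was 0.021 when libraries were scaled by their totals, beside -0.018 over all genes tested.

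At an unadjusted p under 0.05 there were 5 members higher in KO, against 2.95% of all genes, and 3 lower, against 3.01%. The 8 together are 11.6% of the members tested, beside 5.96% of all genes, and with scaling by library totals 1 was higher and 3 were lower. In CPM the KO and WT libraries did not overlap for 3 members higher, against 3.98% of all genes, and 4 lower, against 7.04%. Together these are 10.1% of the members tested, beside 11.0% of all genes. The share at the unadjusted p moved with the setting: it was 5.80% with library totals, 6.41% in DESeq2 and 1.45% with the spread shared over 12 libraries.

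The smallest p belonged to Kcnt1, a channel opened by sodium ions (chr2:25863734-25918273 in GRCm38). Its level was 26.3, 26.2 and 23.3 CPM in WT M1, F1 and M2, and 20.0, 17.9 and 20.6 CPM in KO M1, F1 and M2. All 3 KO libraries lay below all 3 WT libraries. The log2 difference was -0.35 ± 0.11 (SE), with an adjusted p of 0.451 in edgeR's quasi-likelihood test.

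Kcnf1, an electrically silent subunit (chr12:17172100-17176888), had 77.7, 74.7 and 79.6 CPM in the WT libraries and 66.1, 71.0 and 61.3 CPM in the KO libraries in the same order. The groups did not overlap, and the log2 difference was -0.21 ± 0.07 (SE, adjusted p = 0.641, edgeR). Kcna5, a Shaker-type delayed rectifier (chr6:126532551-126535412), was low throughout, with 2.10, 2.04 and 2.03 CPM in WT and 0.752, 1.39 and 1.02 CPM in KO. Its KO libraries were all below its WT libraries, by -0.94 ± 0.37 on the log2 scale (SE, adjusted p = 0.751, edgeR). Within the libraries of low ribosomal RNA share, 2 against 2, the log2 ratios were -0.39 for Kcnt1, -0.20 for Kcnf1 and -0.89 for Kcna5, and within the pair of high share they were -0.34, -0.29 and -0.94.

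The 5 members on the higher side differed by less. Kcnj9 had 188, 193 and 189 CPM in WT M1, F1 and M2 and 209.9, 225 and 190.0 CPM in KO, a log2 difference of 0.15 ± 0.06 (SE, adjusted p = 0.751, edgeR). KO M2 lay inside the range of WT. Kcnq3, a subunit of the channel of the M current, differed by 0.14 ± 0.06, Kcnd3, a channel of the fast A-type current, by 0.12 ± 0.06, Kcnc1 by 0.13 ± 0.06 and the silent Kcns2 by 0.17 ± 0.08 (log2, SE). Of these 5, Kcnd3 and Kcns2 had no overlap between KO and WT. In the single pair of libraries with a high ribosomal RNA share, KO M2 and WT F1, the log2 ratio was -0.024 for Kcnj9, -0.049 for Kcnq3 and -0.050 for Kcnc1, while within the other 4 libraries it was 0.21, 0.21 and 0.19.

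**Figure D2:**
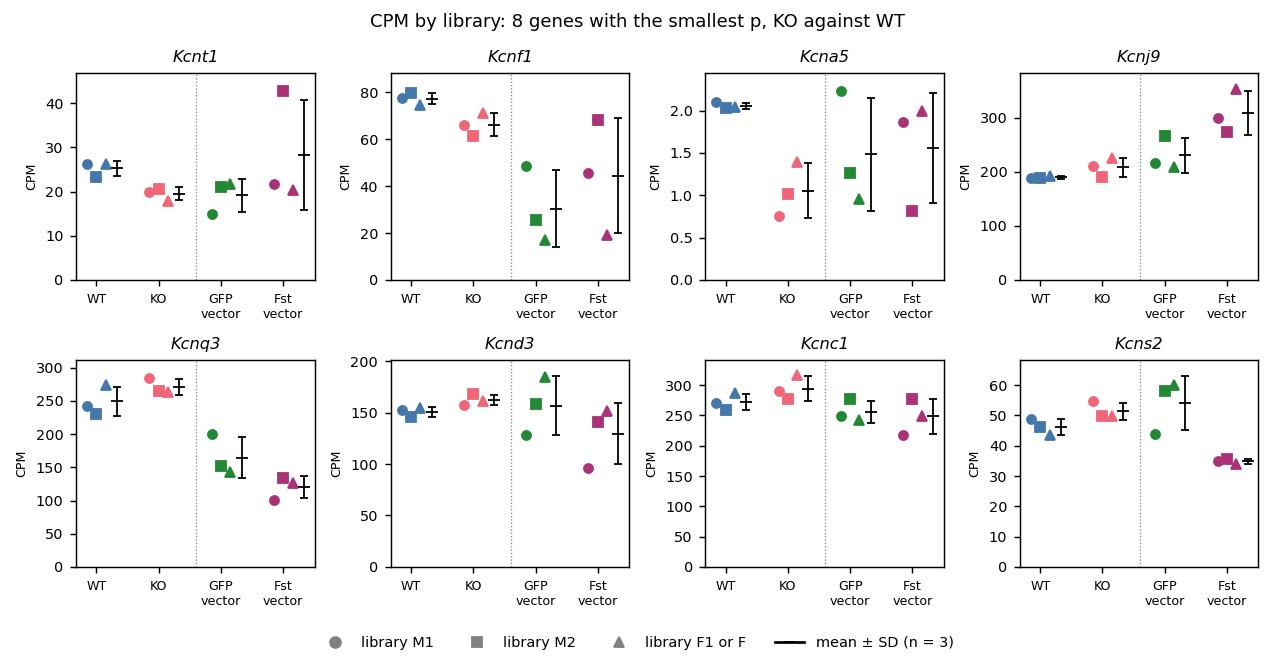
CPM by library for the 8 potassium channel genes with an unadjusted p under 0.05 in KO against WT, 1 panel each with an axis from 0. Symbols are libraries, black marks the mean ± SD of 3 libraries, and the dotted line separates the tables. The KO and WT libraries of Kcnt1, Kcnf1 and Kcna5, lower in KO, and of Kcnd3 and Kcns2, higher in KO, do not overlap.

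Of the other named members, the high-voltage channels Kcnc4 and Kcnc2 differed by 0.12 ± 0.06 and 0.19 ± 0.11, the axonal Kcna2 by 0.12 ± 0.06, Kcnh3 by 0.11 ± 0.06 and Kcnu1, a channel known from sperm, by 0.47 ± 0.24 (log2, SE). On the lower side were the inward rectifiers Kcnj16, at -0.23 ± 0.14, Kcnj12, at -0.37 ± 0.40, and Kcnj3, at -0.06 ± 0.08. With them stood Kcnh5 at -0.26 ± 0.22, Kcnh7 at -0.15 ± 0.11 and the calcium-activated Kcnn3 at -0.08 ± 0.09 (log2, SE). Adjusted p ranged from 0.858 to 0.96 over these 11 in edgeR.

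The largest positive estimate, that of Kcnq5, another M-type channel, rested on scattered libraries. It had 22.5, 18.6 and 8.12 CPM in WT M1, F1 and M2 and 19.4, 25.4 and 32.5 CPM in KO M1, F1 and M2, a log2 difference of 0.69 ± 0.45 (SE, adjusted p = 0.935, edgeR). By class, the voltage-gated alpha subunits had 11 of 15 log2 differences above 0 and a median of 0.066, and the Kcnq and Kcnh subunits 7 of 11 and 0.073. The silent modifiers had 4 of 9 above 0 with a median of -0.0097, the auxiliary genes 3 of 7 with -0.0078, and the two-pore channels 5 of 9 with 0.019. Inward rectifiers had 7 of 11 above 0 with a median of 0.039 and the channels activated by calcium or sodium 5 of 7 with 0.064. Among 32 partner genes, which bind, anchor or regulate these channels or form the related HCN channels, 30 were tested, none was called, and none had an unadjusted p under 0.05.

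The Fst vector group was compared with the GFP vector group, knockouts with a control vector. None of 68 members tested passed edgeR's quasi-likelihood test, beside 0.0798% of all genes. The low-count filter left out 10 members, with 15 to 152 counts over all libraries. The 5 smallest p belonged to Kcns2, Kcnj6, Kcng1 and Kcne1l, which had lower levels with the Fst vector, and Kcnh4, which had a higher one. DESeq2 called these 5 and no other member, beside 0.905% of all genes. With the replicate name as a block, edgeR called Kcnj6 and Kcng1, both lower, beside 0.938% of all genes. With a spread shared over the 12 libraries it called Kcns2, Kcnj6, Kcng1 and Kcne1l (2.64% of all genes), with sex as a term Kcng1 (0.878%), and with no low-count filter Kcns2 (0.842%).

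The background at the unadjusted threshold was also higher here. There were 3 members higher, against 4.34% of all genes, and 6 lower, against 5.16%; the 9 are 13.2% of the members tested, beside 9.51% of all genes. In CPM the groups did not overlap for 5 members higher, against 10.5% of all genes, and 7 lower, against 6.01%. Together these are 17.6% of the members tested, beside 16.5% of all genes. The median log2 difference was -0.042, with 31 members above 0, against a median of 0.0063 and 51.0% above 0 over all genes. With scaling by library totals the members' median was -0.0058 and that of all genes 0.042.

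Kcns2 encodes a silent subunit that modifies the voltage-gated channels it joins (chr15:34837355-34843407). It had 43.8, 58.2 and 60.1 CPM in the GFP vector libraries M1, M2 and F, and 35.0, 35.6 and 34.1 CPM in the Fst vector libraries M1, M2 and F. The 3 Fst vector libraries were close together and all below the GFP vector libraries. The log2 difference was -0.67 ± 0.14 (SE), and the adjusted p was 0.179 in edgeR without a block, 0.0762 with the replicate block and 0.0228 in DESeq2. Within libraries of low ribosomal RNA share, 1 with the Fst vector (M1) against 2 with the GFP vector, the log2 ratio was -0.57. Within those of high share, 2 against 1, it was -0.74. Every such ratio between the vectors uses these same libraries.

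Kcng1, a further silent subunit (chr2:168260117-168281736), had 108, 121 and 199.9 CPM with the GFP vector and 73.9, 73.4 and 101 CPM with the Fst vector. The groups did not overlap, and library F was the highest of each. On the log2 scale the groups differed by -0.82 ± 0.25 (SE, adjusted p = 0.349, edgeR) and -0.79 ± 0.12 with the replicate block (adjusted p = 0.0313, edgeR). Its log2 ratio was -1.06 within low and -0.47 within high ribosomal RNA libraries. The silent Kcnf1 and Kcnv1 had log2 differences of 0.51 ± 0.56 and 0.37 ± 0.18 (SE). The 9 silent modifiers had 5 estimates above 0 and 4 below, with a median of 0.091.

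Kcnj6, Kcnj9 and Kcnj3 encode subunits of the inward rectifiers opened by G proteins. Kcnj6 (chr16:94748636-94997701) had 53.6, 58.8 and 76.8 CPM in GFP vector M1, M2 and F and 17.8, 35.3 and 39.6 CPM in Fst vector M1, M2 and F. No Fst vector library reached the lowest GFP vector library, and Fst vector M1 was lowest of all. The difference on the log2 scale was -1.07 ± 0.28 (SE, adjusted p = 0.293, edgeR), and -1.12 ± 0.17 with the replicate block (adjusted p = 0.0313, edgeR). Its log2 ratio was -1.87 within low and -0.65 within high ribosomal RNA libraries.

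Kcnj9 (chr1:172320501-172329318) had 216, 267 and 208.7 CPM with the GFP vector and 299.9, 274 and 352 CPM with the Fst vector, the groups again not overlapping. The log2 difference was 0.39 ± 0.15 (SE, adjusted p = 0.459, edgeR), or 0.50 and 0.23 within libraries of low and high ribosomal RNA share. Kcnj3, the subunit that joins either of them, had 145, 166 and 135 CPM with the GFP vector and 141, 131 and 168 CPM with the Fst vector, and its log2 difference was -0.06 ± 0.14 (SE, adjusted p = 0.93, edgeR). Its groups overlapped.

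The bases before the RefSeq start of these 3 genes are shown because their subunits meet in the same kind of channel and the estimate of Kcnj6 was among the leading ones. Coordinates are of GRCm38.p6, the sequence runs 5′ to 3′ on the gene's strand, and capitals mark each CG pair. Kcnj3 is on the plus strand at chr2:55435720-55435969, Kcnj6 on the minus strand at chr16:94997702-94997946 and Kcnj9 on the minus strand at chr1:172329323-172329572. For Kcnj6, which has 2 starts, the farther upstream is given, without 5 bases that the annotation places inside the gene.
Kcnj3: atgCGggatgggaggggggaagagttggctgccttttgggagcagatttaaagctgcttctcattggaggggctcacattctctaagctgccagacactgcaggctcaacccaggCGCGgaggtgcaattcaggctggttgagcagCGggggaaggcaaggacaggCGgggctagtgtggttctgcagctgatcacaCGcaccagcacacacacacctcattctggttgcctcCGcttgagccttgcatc
Kcnj6: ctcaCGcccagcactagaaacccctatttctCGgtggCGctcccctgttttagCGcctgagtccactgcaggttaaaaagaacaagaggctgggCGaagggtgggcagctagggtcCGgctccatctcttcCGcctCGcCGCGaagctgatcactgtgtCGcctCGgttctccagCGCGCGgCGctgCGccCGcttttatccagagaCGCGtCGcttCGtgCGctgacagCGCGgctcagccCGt
Kcnj9: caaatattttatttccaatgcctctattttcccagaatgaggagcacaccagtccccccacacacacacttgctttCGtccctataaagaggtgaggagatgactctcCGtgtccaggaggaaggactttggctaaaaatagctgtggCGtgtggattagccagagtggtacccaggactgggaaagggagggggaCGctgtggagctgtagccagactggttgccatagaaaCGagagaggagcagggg
The printed window of Kcnj6 holds 26 CG pairs and 63.3% G or C, that of Kcnj3 holds 7 and 58.4%, and that of Kcnj9 holds 5 and 52.0%. The window of the other Kcnj6 start, not printed, holds 7 CG pairs and 65.6% G or C. Over 32851 starts of all genes the median in 250 bases was 6 CG pairs and 52.4% G or C, and over 74 starts of the 55 members in the RefSeq table it was 8 and 59.6%. The motif TGACGTCA, which reads the same on both strands and is bound by CREB, was in none of the 74 windows, against 1.55% of all starts. Its core TGACG, searched on both strands and part of the longer motif, was in 13 of 74 windows, or 17.6%, against 17.8% of all starts, and in none of the 3 printed.

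Kcne1l, a small single-span beta subunit (chrX:142304752-142306294), had the largest estimate of the 68 members tested and, among them, the most uneven GFP vector libraries. It had 3.71, 14.0 and 30.1 CPM in GFP vector M1, M2 and F and 3.44, 2.33 and 2.55 CPM in Fst vector M1, M2 and F. GFP vector M1 was close to the Fst vector libraries and the other two GFP vector libraries far above. Between the groups the log2 difference was -2.56 ± 0.72 (SE, adjusted p = 0.355, edgeR), and -3.02 ± 0.36 without GFP vector M1 (adjusted p = 0.0237, edgeR, beside 0.188% of all genes). Without GFP vector F, the library that stood apart, it was -1.72 ± 0.50 (adjusted p = 0.401, edgeR). The log2 ratio was -2.27 within low and -2.48 within high ribosomal RNA libraries.

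Kcnh4, a channel of the ELK branch of the ether-a-go-go family (chr11:100740376-100759942), was the leading gene in the other direction. It had 16.6, 30.2 and 9.54 CPM with the GFP vector and 44.5, 46.8 and 39.3 CPM with the Fst vector, in the order M1, M2 and F. Every Fst vector library was above every GFP vector library, and library F was the lowest of each group. The log2 difference was 1.18 ± 0.37 (SE, adjusted p = 0.391, edgeR), and the log2 ratio was 1.76 within low and 0.51 within high ribosomal RNA libraries.

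Kcnq3 (chr15:65986387-66286642) had 200.1, 151 and 142 CPM with the GFP vector and 101, 133 and 127 CPM with the Fst vector. The groups did not overlap, and the log2 difference was -0.49 ± 0.17 (SE, adjusted p = 0.408, edgeR), or -0.76 and -0.22 within libraries of low and high ribosomal RNA share. Kcnq5, of the same family, differed by 0.61 ± 0.28 (log2, SE). Kcnh7, a channel of the erg group, had 13.7, 12.7 and 13.9 CPM with the GFP vector and 13.5, 24.2 and 30.1 CPM with the Fst vector. Its estimate of 0.71 ± 0.26 (SE, adjusted p = 0.445, edgeR) overlapped with the controls in Fst vector M1, and the log2 ratio within low ribosomal RNA libraries was -0.040. Kcnk12, a two-pore subunit, had 31.9, 26.7 and 28.3 CPM with the GFP vector and 25.1, 24.3 and 20.8 CPM with the Fst vector, a log2 difference of -0.34 ± 0.15 (SE, adjusted p = 0.521, edgeR) with no overlap.

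The leading genes were also read in the libraries without vector. Over the 6 libraries of WT and KO, Kcns2 had 43.4 to 54.7 CPM, Kcnj6 had 76.7 to 98.2 CPM, Kcng1 had 109 to 116 CPM, Kcne1l had 2.31 to 3.64 CPM and Kcnh4 had 13.5 to 21.2 CPM. For Kcne1l the Fst vector libraries and GFP vector M1 were near these levels, while for Kcnj6 the lowest 5 of the 6 vector libraries lay below all of them.

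Among the other named members on the higher side, the sodium-activated Kcnt2 differed by 0.51 ± 0.25, Kcnb2 by 0.53 ± 0.30, the calcium-activated Kcnn2 by 0.38 ± 0.21, Kcnj16 by 0.43 ± 0.23 and the mechanically sensitive two-pore channel Kcnk10 by 0.35 ± 0.17 (log2, SE). On the lower side the Shaker-type Kcna3 differed by -0.68 ± 0.33, the two-pore Kcnk6 by -0.55 ± 0.26 and Kcnd3 by -0.32 ± 0.19 (log2, SE). Adjusted p was 0.576 to 0.682 over these 8 in edgeR.

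**Figure D3:**
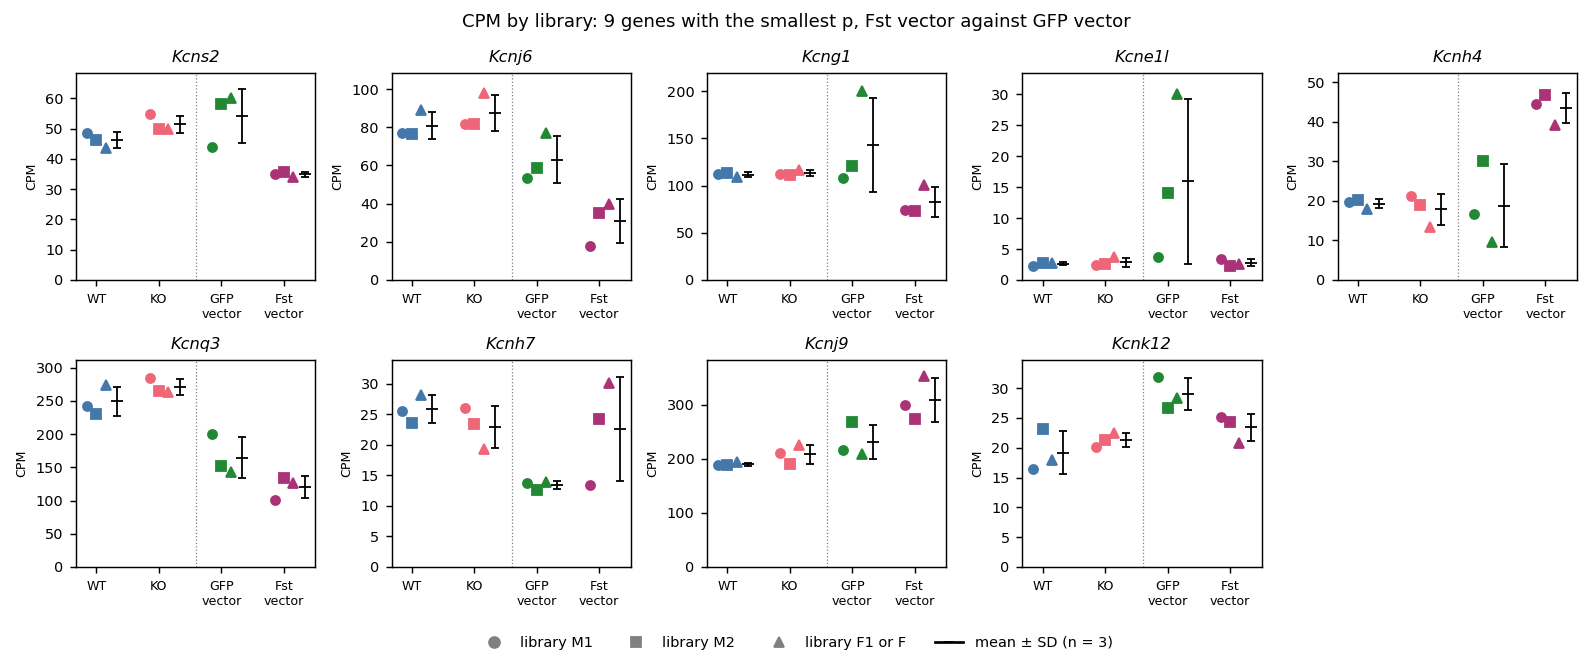
CPM by library for the 9 potassium channel genes with an unadjusted p under 0.05 in Fst vector against GFP vector, 1 panel each with an axis from 0. Symbols are libraries, black marks the mean ± SD of 3 libraries, and the dotted line separates the tables; Kcnh7 alone among the 9 has overlapping vector groups.

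By class the estimates are given as counts, with no test between classes. Of the voltage-gated alpha subunits 4 of 15 were above 0, with a median of -0.082, and of the channels activated by calcium or sodium 4 of 7, with a median of 0.379. Two-pore channels had 5 of 9 above 0 with a median of 0.165, inward rectifiers 5 of 11 with -0.059, Kcnq and Kcnh subunits 6 of 11 with 0.012, and auxiliary genes 2 of 6 with -0.053. Among the partner genes 9 of 30 were above 0, with a median of -0.097, and none was called. At an unadjusted p under 0.05, Cntnap2, an anchor of axonal Shaker-type channels, differed by 0.64 ± 0.20, and on the lower side were the ubiquitin ligase Nedd4l by -0.46 ± 0.14, the Kcnd partner Dpp6 by -0.37 ± 0.12, Lgi1 by -0.41 ± 0.14 and the BK subunit Lrrc26 by -1.04 ± 0.41 (log2, SE).

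Kcnj10, the inward rectifier by which astrocytes take up potassium (chr1:172341210-172374085), was uneven among the GFP vector libraries. It had 71.5, 119 and 260.1 CPM in GFP vector M1, M2 and F, and 66.1, 77.4 and 92.5 CPM in Fst vector M1, M2 and F. In KO it had 86.2 to 94.8 CPM and in WT 83.3 to 96.6 CPM. The vector groups overlapped, and the log2 difference was -0.97 ± 0.47 (SE, adjusted p = 0.605, edgeR). Without GFP vector F it was -0.31 ± 0.22 (adjusted p = 0.883, edgeR).

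The 6 astrocyte markers, all detected in every library, summed to 3134, 4724 and 8131 CPM in GFP vector M1, M2 and F and to 3173, 3774 and 4181 CPM in Fst vector M1, M2 and F, beside 3740 to 3819 CPM in KO and 3770 to 3857 CPM in WT. Most of the excess in GFP vector F was Gfap, and that library was highest of the 12 for 3 of the 6 markers and lowest for Slc1a3 and Gja1. Bdnf had 73.4, 125 and 208 CPM in the GFP vector libraries and 75.6, 76.1 and 192 CPM in the Fst vector libraries, so library F was high in both groups. Of 9 immediate-early genes, Bdnf included, GFP vector F was highest of the 12 libraries for 3, the others being Arc and Inhba, while Npas4, Junb and Nr4a1 were lowest there, at 1.14, 45.5 and 12.5 CPM. Kcne1l, Kcng1 and Kcns2 were also highest of the 12 libraries in GFP vector F, and Kcnh4 was lowest there. Without that library the log2 differences were -0.58 ± 0.16 for Kcns2, -0.50 ± 0.17 for Kcng1, -0.90 ± 0.29 for Kcnj6 and 0.85 ± 0.24 for Kcnh4 (SE, adjusted p from 0.339 to 0.491, edgeR). The part of astrocytes or activity genes in these results was not tested. The 5 oligodendrocyte markers summed to 1048 to 1215 CPM with the GFP vector and 1401 to 1670 CPM with the Fst vector. The vector groups also did not overlap in the sums for interneurons (363 to 466 against 478 to 545 CPM), CA1 pyramidal cells (52.8 to 64.0 against 39.9 to 41.8 CPM) and, barely, microglia (187.1 to 228 against 166 to 187.0 CPM). Taken singly, only Fibcd1 of the CA1 markers did not overlap (11.5 to 32.8 against 2.77 to 7.36 CPM). Of the interneuron markers only Slc32a1 did not (29.3 to 34.5 against 35.8 to 50.6 CPM), and every microglia marker overlapped. In bulk tissue, fewer cells of a type and less RNA per cell cannot be told apart.

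**Figure D4:**
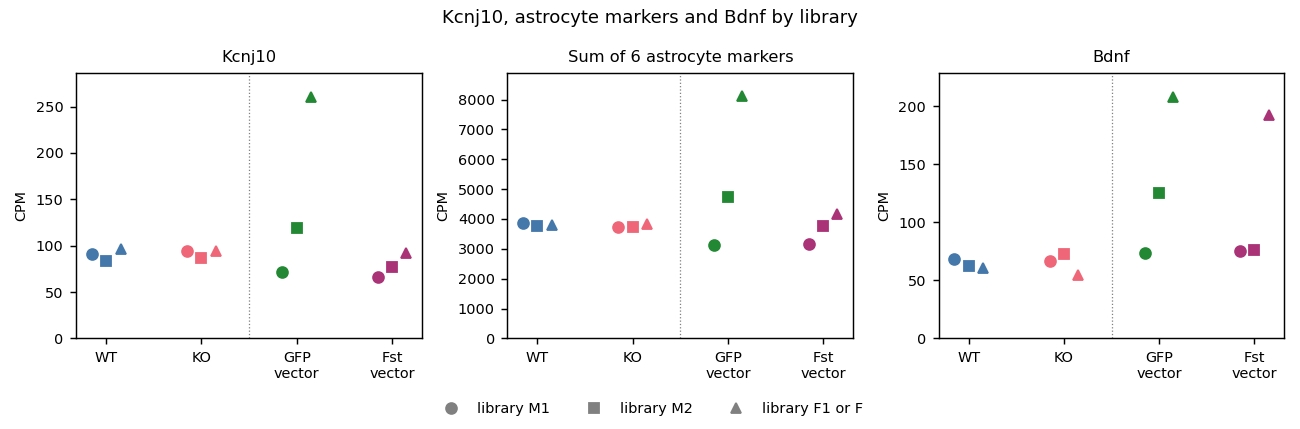
CPM by library of Kcnj10, of the sum of 6 astrocyte markers and of Bdnf, in 3 panels with axes from 0 and the dotted line between the tables. Symbols are libraries; GFP vector F is the highest library for all 3, at 260.1, 8131 and 208 CPM.

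The difference between both effects, Fst vector less GFP vector minus KO less WT, was tested in 1 fit of the 12 libraries. The vector comparison sets libraries with Fst against libraries without it, and KO against WT does the reverse. A gene that was lower where Fst was present in both comparisons therefore has a negative difference. Of 69 members 1 was called, Kcns2, beside 0.281% of all genes. Its difference was -0.85 ± 0.16 on the log2 scale (SE, adjusted p = 0.0338, edgeR's quasi-likelihood test): it was higher in KO than in WT by 0.17 and lower with the Fst vector than with the GFP vector by -0.67. The call was lost with scaling by library totals (adjusted p = 0.0626, edgeR, beside 0.313% of all genes). It was also lost without Fst vector F (0.0557) or M2 (0.0946), GFP vector M2 (0.0558), KO F1 (0.0862), M1 (0.167) or M2 (0.0997), and WT F1 (0.134), M1 (0.107) or M2 (0.129), each an adjusted p from edgeR.

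The next members missed the threshold in this fit. The differences were -1.21 ± 0.33 for Kcnj6 (adjusted p = 0.191, edgeR), -0.63 ± 0.19 for Kcnq3 (0.21), -0.87 ± 0.27 for Kcng1 (0.273), -2.71 ± 0.86 for Kcne1l (0.286) and 1.26 ± 0.44 for Kcnh4 (0.342), on the log2 scale with SE. At an unadjusted p under 0.05 there were 4 positive and 6 negative members. The background there was 4.31% and 5.65% of all genes, or 9.95% in both directions. Some of these calls depend on the fit. DESeq2 called Kcns2, Kcnj6 (adjusted p = 0.0153) and Kcne1l (0.0203), beside 0.812% of all genes. With the replicate block edgeR called Kcns2, Kcnj6 (adjusted p = 0.00528) and Kcng1 (0.00753), beside 1.85% of all genes. With sex as a term it called Kcns2 and Kcnj6 (0.512% of all genes), and with no low-count filter Kcns2 and Kcnq3 (0.710%).

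**Figure D5:**
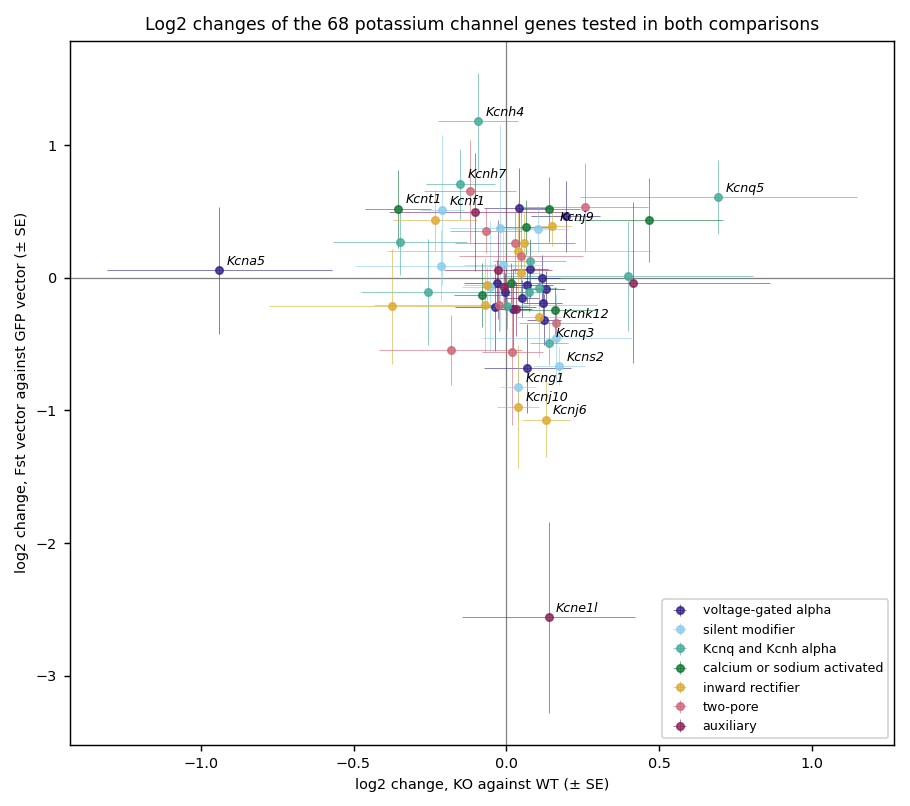
Log2 difference of the 68 potassium channel genes tested in both comparisons, KO against WT across and Fst vector against GFP vector upward, each with its SE, coloured by structural class. Estimates spread more on the upward axis, from -2.56 for Kcne1l to 1.18 for Kcnh4, than on the other, where Kcna5 at -0.94 and Kcnq5 at 0.69 are the ends.

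Replicate libraries of the vector groups were less alike in these genes than in others, a comparison given with no test. The median SD of log2(CPM + 1) over members was 0.272 with the GFP vector and 0.288 with the Fst vector, against 0.189 and 0.198 over all genes tested. In KO and WT it was 0.124 and 0.107, against 0.116 and 0.106. For members with a mean of at least 10 CPM the values were 0.264 and 0.266 in the vector groups, against 0.157 and 0.174 for all genes of that level. The most uneven members were Kcne1l with the GFP vector, at an SD of 1.37, and Kcng3 with the Fst vector, at 0.910.

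The 6 vector libraries also differed from the 6 without vector, where vector, table and handling cannot be told apart, so the values are given with no test. Of the 69 members tested in the fit of 12 libraries, 10 were lower in every vector library than in any library without vector. Over all genes of that fit the share was 4.25%. Higher in every vector library were 2 of the 69, beside 7.01% of all genes. Kcng3, a silent subunit, had 7.63 to 10.9 CPM without vector and 0.572 to 5.47 CPM with it. Kcnk9, an acid-sensitive background channel, had 23.8 to 29.3 CPM without vector and 3.93 to 18.9 CPM with it.

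The abundant Kcnab2 had 811 to 859 CPM without vector and 424 to 718 CPM with it, and Kcna1, an axonal Shaker-type channel, 104 to 115 and 33.5 to 87.4 CPM. Kcnq3 was on this side too, with 231 to 285 against 101 to 200.1 CPM. Also lower in every vector library were Kcnh5, Kcnmb4, Kcna3 and Kcnd2. On the higher side Kcnj4 had 116 to 142 CPM without vector and 148 to 216 CPM with it, and Kcnk1 95.9 to 109 against 119 to 202 CPM. All members together took 0.584% to 0.612% of the counts without vector and 0.490% to 0.546% with it. These genes were chosen after their values were seen.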

How the data were processed

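Total RNA libraries of mouse dentate gyrus were used. The values deposited by the authors are raw counts of reads for each Ensembl gene, per the file headers, with KO and WT in 1 table and both vector groups in a second. Reads were placed on GRCm38, a build named in the submitters' processing notes. The aligner, the counter and its annotation and strand setting are not given in the sources used. Each table also had lines that name no gene, 6 in the table of KO and WT and 12 in the other, with 0 counts, which were left out. Where the counter ignored strand, a gene shares reads with those that overlap it: exons of other genes covered 31.1% of those of Kcnj3, 4.98% of Kcnj6, 4.57% of Kcnh7 and 4.01% of Kcnj9.

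Symbols and coordinates came from GENCODE for GRCm38 and matched 52403 IDs. CPM used library totals. Each comparison was fitted on all genes of its own table with edgeR 4.0.16 in R 4.3.3 (quasi-likelihood test, TMM, default filterByExpr, robust, Benjamini-Hochberg over all genes tested, threshold 0.05). SE is the log2 difference divided by the square root of F. DESeq2 1.42.0 was an alternative. Named genes were those called, the 10 with the smallest p in each direction and comparison, and the 2 highest per class; Kcnq5 between KO and WT, and Kcnf1 and Kcnj3 between the vector groups, were added after their values were seen. In the vector table same-named libraries deviated together, with correlations of 0.319 for M1, 0.136 for M2 and 0.388 for F. Libraries of different names had correlations of -0.452 to 0.116, so the M2 pair barely stood out. This pairing comes from the data and no label, and the calls with the replicate block rest on it. Replicates differed beyond sampling noise (chi-square over degrees of freedom 2.39 to 31.5). The SE of a log2 difference holds the estimated spread between libraries, while the floor covers counting error only. The members and lists were chosen with earlier results of these data known. The main edgeR fit of each comparison was also run on simulated counts, drawn with the spread that edgeR had estimated from these libraries. Such a run cannot show whether the model suits the data. Promoters came from RefSeq (GRCm38.p6). Counts cover all members, and the results of some that the rule names are not reported here.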

Additional observations from a re-analysis of the deposited data

Results flagged for a closer look

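Kcns2 had estimates of opposite sign in the comparisons. KO lacked Fst where WT had it, and the Fst vector group had it where the GFP vector group lacked it. Opposite signs therefore mean that Kcns2 was estimated lower with Fst in both comparisons. A test of the difference itself, a contrast in edgeR's quasi-likelihood fit of 12 libraries, gave -0.85 ± 0.16 on the log2 scale (SE, adjusted p = 0.0338). It had 43.4 to 48.7 CPM in WT, 49.8 to 54.7 CPM in KO, 43.8 to 60.1 CPM with the GFP vector and 34.1 to 35.6 CPM with the Fst vector. In edgeR without a block neither comparison passed the threshold by itself, while Fst vector against GFP vector passed in DESeq2 (adjusted p = 0.0228), with the spread shared over 12 libraries (0.00609) and with no low-count filter (0.0174). The difference was called under 9 of 19 alternatives and lost under the others, which were scaling by library totals and leaving out 1 of 9 libraries (adjusted p up to 0.167, edgeR).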

How the results depend on the processing

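Members called between KO and WT numbered 0 under every alternative run, the replicate block included. With library totals in place of TMM their median log2 difference there moved from 0.039 to 0.021, and that of all genes tested from -0.00085 to -0.018. Between the Fst and GFP vectors the count went from 0 to 5 with DESeq2, 1 with no low-count filter, 2 with the replicate block, 1 with sex as a term and 4 with the spread shared over 12 libraries, and leaving out 1 library gave 0 to 1. The block changed no other call of that comparison. For the difference of effects the count went from 1 to 3 with DESeq2, 0 with library totals, 2 with no filter, 3 with the replicate block and 2 with sex, and leaving out 1 library gave 0 to 2. Same-named KO and WT libraries share only a name (correlations 0.0664, 0.154 and -0.0627). An alternative added after seeing the data, the log2 ratio within libraries of like ribosomal RNA share, reversed Kcnj9 (-0.024), Kcnq3 (-0.049), Kcnc1 (-0.050), Kcnc4 (-0.087) and Kcnj3 (0.0485) between KO and WT in the high-share pair, and Kcnh7 (-0.040) between the vectors in the low-share libraries. Of the other ratios of this kind, 8 KO and WT values and 19 vector values kept their sign but moved by at least their SE. A further 27 and 20 moved by less. Leaving out 1 library, Kcnj3 ran from -0.15 to 0.026 and reversed without KO F1. The causes were not tested. Under the other alternatives 299 KO and WT values and 286 vector values kept their direction and side of the threshold. With 3 libraries a group, a p that misses the threshold does not show that groups are alike.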
